A study of Mus musculus with 2 samples.

Results

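The genes described here are 10 genes of epithelial-mesenchymal transition (EMT) and of mesenchymal identity. They encode the transcription factors (TFs) SNAI1, SNAI2, TWIST1, TWIST2, ZEB1 and ZEB2, the mesenchymal structural proteins CDH2 and VIM, and the mesenchymal homeodomain TFs PRRX1 and PRRX2. They were chosen by name, so that every probe that was no control and carried one of these gene names on the array was a member. All 10 genes were found, with 14 probes, among 29913 gene names with 39413 probes. The rule itself uses no measured value, although the list was drawn up with earlier results of these data known, and all 10 genes and all 14 probes passed the filter on dim probes.

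The RNA came from ureters of wildtype NMRI mouse embryos dissected at E12.5, with the sex not determined, and explanted for 18 h in medium that held either 10 µM BIO or DMSO (2:1000) as the control. BIO (6-bromoindirubin-3-oxime) inhibits the kinase GSK3, stabilizes β-catenin and thereby activates canonical WNT signaling. The comparison shows which genes respond to BIO in the early ureter. Whether a gene responds through WNT signaling was not tested. Both groups were whole wildtype ureters pooled within a sample, so each value averages over ureteric mesenchyme (UM), ureteric epithelium (UE) and all other cells of the explant. There were 2 arrays, each with BIO RNA in one channel and control RNA in the other, and the dyes were exchanged between them, with control in green in replicate 1 (array 1) and in red in replicate 2 (array 2).

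In an EMT, epithelial cells give up cell junctions and apical-basal polarity and take on the motile, matrix-producing state of mesenchyme. SNAIL and ZEB factors are zinc finger proteins that repress epithelial genes such as Cdh1 through E-boxes, short DNA elements in promoters, and TWIST factors are bHLH proteins that bind related elements together with a second bHLH protein. GSK3 is known to phosphorylate SNAI1 and so to mark the protein for degradation, a step that RNA levels do not show. In the embryo the same factors are expressed in tissues that already are mesenchymal, and PRRX1 and PRRX2 are used as markers of limb, craniofacial and other mesenchyme.

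The treatment left a clear trace on the arrays, since 8 of 8 known WNT target genes rose, with a median log2 ratio of BIO over control of 1.20. Axin2, a feedback inhibitor of the pathway, rose by 2.15 ± 0.12 at its brightest probe (mean log2 ratio ± SE, n = 2 arrays). With all its kept probes averaged, Axin2 rose by 1.64. Lef1, which encodes a TF of the pathway, rose by 1.07 ± 0.11 and Sp5, a direct target, by 2.80 ± 0.12. Here and below SE is the moderated SE of the limma fit, which draws mostly on the spread over all probes tested. It can therefore be smaller than the spread between the 2 arrays of a gene. All 12 UM markers were well above background in all 4 channels, and all 12 UE markers in both control channels, while in the BIO channels the UE marker Upk1b was not well above background on either array. Between 70.1% and 80.9% of the biological spots of a channel were well above background, and 0 spots were saturated. Over all genes tested the median log2 ratio was -0.01.

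Of the 10 genes, 5 fell with BIO (Twist1, Twist2, Vim, Zeb1 and Zeb2), 2 rose (Prrx1 and Prrx2) and 3 did not pass the test (Snai1, Snai2 and Cdh2). Over all 21598 genes tested, 14.8% fell and 9.14% rose at the same threshold. A gene is represented by its brightest probe, and it is said to have fallen or risen when its adjusted p was under 0.05 (limma, two-sided, Benjamini-Hochberg over all 28824 probes tested). The log2 ratios ran from -1.19 for Twist1 to 0.52 for Prrx2, with a median of -0.26. That median was -0.35 on array 1 and -0.23 on array 2. Because the comparison had 2 arrays, the precision was limited, with a median moderated SE of 0.11 on the log2 scale. The smallest mean log2 ratio that passed in any gene was 0.35 in size.

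**Figure D1:**
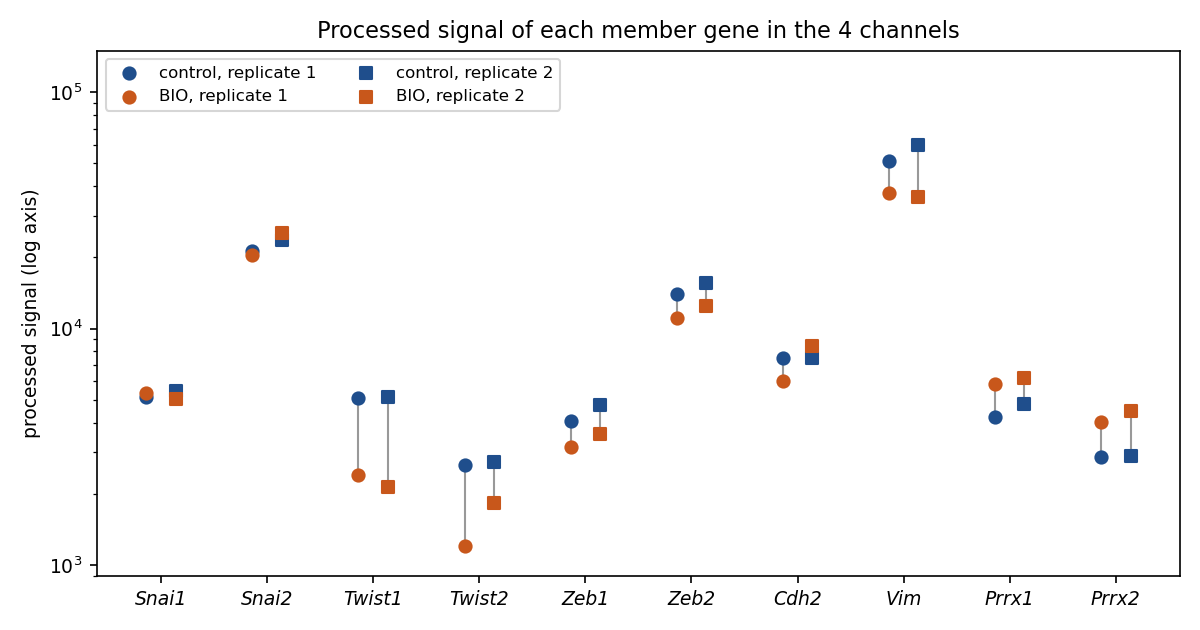
Processed signal (background-subtracted and dye-normalized within the array, arbitrary units, log axis) of the brightest probe of each of the 10 genes; blue symbols are control, orange symbols are BIO, circles are replicate 1, squares are replicate 2, and a line joins the 2 channels of an array. Twist1, Twist2, Zeb1, Zeb2 and Vim lie lower with BIO on both arrays, Prrx1 and Prrx2 lie higher, and heights can be compared within a gene but not between genes.

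The signals of the 4 channels show the same pattern before any fit. In 7 of the 10 genes the control signals of both arrays lay on one side of both BIO signals, and these were the 7 genes that passed the test. Such a separation was common on the array, however, where it held for 56.3% of all genes tested. Both arrays had the same sign in 8 of the 10 genes, all but Snai2 and Cdh2, compared with 72.9% of all genes tested.

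Among these genes the TWIST genes fell most. Twist1 encodes a bHLH factor that is required in cranial and limb mesenchyme, and its probe (NM_011658) lies at chr12:34644411-34644470 of mm9 (NCBI37), the build of the array files. Its processed signal was 5098 in the control and 2390 in the BIO channel of array 1, and 5144 and 2127 on array 2. The control signals were nearly equal and both BIO signals lay far below them. The log2 ratio was -1.15 on array 1 and -1.24 on array 2, a mean of -1.19 ± 0.11 (moderated SE, n = 2 arrays, adjusted p = 0.000241, limma). Control was thus 2.29-fold higher. Twist2, a close relative expressed in dermal and other connective tissue precursors, was measured by 1 probe (NM_007855, chr1:93744519-93744577, mm9). Its signals were 2658 and 1205 for control and BIO on array 1, and 2732 and 1824 on array 2. Again the controls were close together, but the BIO signals differed between the arrays. The log2 ratio of Twist2 was -1.17 on array 1 and -0.62 on array 2, with a mean of -0.89 ± 0.14 (adjusted p = 0.00350, limma), a 1.86-fold difference. Both TWIST genes kept their calls in 6 of 7 other ways of processing the arrays and lost them with the deposited score table, where the adjusted p was 0.0916 for Twist1 and 0.234 for Twist2.

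The promoters of Twist1 and Twist2 are shown because these genes moved together and most strongly. Each line gives the 250 bases before the RefSeq transcription start on the gene's own strand, from GRCm38.p6, at chr12:33957421-33957670 (plus strand) for Twist1 and chr1:91801211-91801460 (plus strand) for Twist2. Capitals would mark E-boxes (CANNTG, which reads the same on both strands) and TCF/LEF elements (CTTTGA or CTTTGT and, for the other strand, TCAAAG or ACAAAG), the elements through which SNAIL, ZEB and TWIST factors and the DNA-binding partners of β-catenin are known to act.
Twist1: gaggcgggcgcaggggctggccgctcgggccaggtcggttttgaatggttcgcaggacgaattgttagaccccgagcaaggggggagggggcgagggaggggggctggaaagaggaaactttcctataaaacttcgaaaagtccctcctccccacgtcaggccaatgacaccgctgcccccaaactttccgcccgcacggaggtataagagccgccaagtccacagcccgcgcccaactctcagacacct
Twist2: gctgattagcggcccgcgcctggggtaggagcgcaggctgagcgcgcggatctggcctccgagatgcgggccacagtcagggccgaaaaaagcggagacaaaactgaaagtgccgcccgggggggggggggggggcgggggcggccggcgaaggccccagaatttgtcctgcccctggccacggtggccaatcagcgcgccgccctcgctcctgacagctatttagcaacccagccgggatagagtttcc
Neither window held any of these letters. Among 32851 promoters of the same length from 27025 genes, 66.2% held at least 1 E-box and 27.6% at least 1 TCF/LEF element. Of the 10 genes, 7 were searched (not Snai2, Zeb1 and Cdh2), with 10 starts in all because Zeb2 has several. Of these 10 windows, 8 held neither element, and these belong to 6 genes. Some of the Zeb2 windows overlap, so the windows are not independent. The share of all promoters that held neither element was not computed, so the count has nothing to be compared with. A window without these letters tells nothing of sites elsewhere in the locus.

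Both ZEB genes fell by a smaller amount. Zeb1 and Zeb2 encode large zinc finger and homeodomain repressors of Cdh1 that are also expressed in mesenchyme, neural crest and endothelium. Zeb1 (NM_011546, on chromosome 18) had signals of 4082 for control and 3146 for BIO on array 1, and of 4737 and 3581 on array 2. Both BIO signals were below both control signals. Its log2 ratio was -0.36 and -0.44, a mean of -0.40 ± 0.11 (adjusted p = 0.0307, limma), or 1.32-fold. The brightest probe of Zeb2 (NM_015753, chr2:44842774-44842833, mm9) gave 14077 and 11123 on array 1, and 15604 and 12464 on array 2. Its log2 ratio was -0.42 and -0.38, a mean of -0.40 ± 0.11 (adjusted p = 0.0314, limma), again 1.32-fold. Zeb2 had 2 further probes with the same sign on both arrays, neither of which passed. One, for the same transcript, at chr2:44840038-44840097, had a mean log2 ratio of -0.20 (adjusted p = 0.261, limma). The other, designed for the transcript ENSMUST00000028229, at chr2:44965914-44965973, had one of -0.35 (adjusted p = 0.0536, limma). Both ZEB calls were close to the threshold and ended when the offset of the background correction was 16 in place of 50, with adjusted p of 0.0508 for Zeb1 and 0.0522 for Zeb2. They also ended with Feature Extraction's processed signals (0.0786 and 0.108) and with median centring (0.214 and 0.498), and that of Zeb2 ended when its probes were averaged (0.0523). With the deposited score table both ZEB genes passed (adjusted p = 0.0342 each, limma). There each had the same coarse log2 score, -0.38, on both arrays. The test thus saw no spread between the arrays, and these 2 calls add no support.

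In contrast, neither SNAIL gene changed detectably. Snai1 encodes the founding repressor of Cdh1 in EMT, and its probe (NM_011427) lies at chr2:167368073-167368132 (mm9). The signals were 5122 and 5318 for control and BIO on array 1, and 5455 and 5019 on array 2. The groups overlapped, with BIO higher in one array and lower in the other on this scale. After loess the log2 ratio of Snai1 was -0.04 and -0.08, a mean of -0.06 with a 95% interval from -0.31 to 0.19 (adjusted p = 0.736, limma). Snai2 (NM_011415, chr16:14709361-14709420, mm9) encodes the relative that marks migratory neural crest and many mesenchymes. Its signals were 21400 and 20489 on array 1, and 23629 and 25395 on array 2. These overlapped too, and the log2 ratios of -0.09 and 0.08 had opposite signs. The mean of Snai2 was -0.00 with a 95% interval from -0.26 to 0.25 (adjusted p = 0.984, limma). The intervals leave room for small changes of either gene, but not for one as large as that of Twist1.

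The promoter of Snai1 is shown since it held both elements. It spans chr2:167537945-167538194 of GRCm38.p6 on the plus strand, 250 bases before the start, with the E-box CACCTG and the TCF/LEF element ACAAAG in capitals.
Snai1: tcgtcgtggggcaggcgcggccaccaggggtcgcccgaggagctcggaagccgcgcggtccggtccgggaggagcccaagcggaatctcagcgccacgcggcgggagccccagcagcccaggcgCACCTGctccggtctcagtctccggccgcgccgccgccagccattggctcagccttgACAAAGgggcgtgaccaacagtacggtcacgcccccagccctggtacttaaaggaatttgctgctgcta
CACCTG or its reverse complement CAGGTG is the form of E-box that SNAIL and ZEB factors bind best, and 17.2% of the 32851 promoters held one. It is counted among the E-boxes as well.

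Among the structural genes Vim fell, while Cdh2 did not pass the test. Vim encodes vimentin, the intermediate filament of mesenchymal cells, and its probe (NM_011701) lies at chr2:13504232-13504291 (mm9). Its signals were 51441 and 37495 for control and BIO on array 1, and 59603 and 36062 on array 2. Both BIO signals were below both control signals. The log2 ratio of Vim was -0.34 and -0.78, with a mean of -0.56 ± 0.13 (adjusted p = 0.0181, limma), or 1.48-fold. This value depended on how the arrays were normalized. With median centring in place of loess, Vim had log2 ratios of 0.11 on array 1 and -0.64 on array 2, a mean of -0.26 (adjusted p = 0.588, limma), and its call also ended with the deposited score table (adjusted p = 0.197).

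Cdh2 encodes N-cadherin, the adhesion molecule that replaces E-cadherin in EMT, and had 2 probes for 1 transcript (NM_007664, on chromosome 18). At the brighter probe the signals were 7476 and 6006 on array 1, and 7520 and 8452 on array 2. BIO was the lower channel of one array and the higher channel of the other, with log2 ratios of -0.35 and 0.09 and a mean of -0.13 (95% interval from -0.44 to 0.18, adjusted p = 0.539, limma). The other Cdh2 probe gave 0.13 and 0.24, a mean of 0.19 (95% interval from -0.07 to 0.44, adjusted p = 0.268, limma). The direction thus differed between the probes, and neither probe passed.

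**Figure D2:**
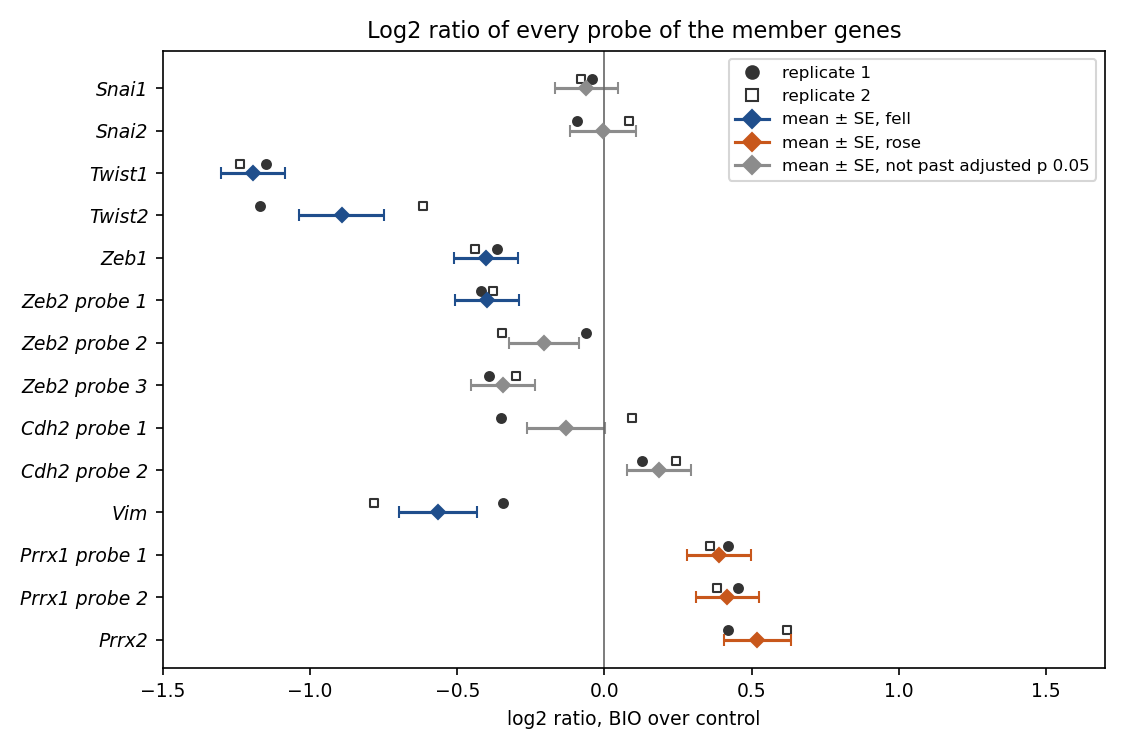
Log2 ratio of BIO over control (x axis) at each of the 14 probes of the 10 genes (y axis, brightest probe of a gene first). Black circles are replicate 1 and open squares are replicate 2. Diamonds are the mean of the 2 arrays, and bars are the moderated SE of the fit. Blue marks the 5 probes that fell, orange the 3 that rose and grey the 6 that did not pass an adjusted p of 0.05, and the arrays lie farthest apart for Twist2, Cdh2 probe 1 and Vim.

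The PRRX genes were the only ones of the 10 that rose. Prrx1 encodes a paired-related homeodomain TF of limb and other mesenchymal progenitors, and was measured at 2 transcript variants. The brighter probe (NM_175686, chr1:165175375-165175434, mm9) had signals of 4236 and 5829 for control and BIO on array 1, and of 4797 and 6189 on array 2. Both BIO signals were above both control signals. Its log2 ratio was 0.42 and 0.36, a mean of 0.39 ± 0.11 (adjusted p = 0.0344, limma), or 1.31-fold. The other Prrx1 probe (NM_001025570, chr1:165185408-165185467, mm9) had log2 ratios of 0.45 and 0.38, a mean of 0.42 ± 0.11 (adjusted p = 0.0267, limma). Prrx2 (NM_009116, chr2:30736678-30736737, mm9), the closest relative of Prrx1, had signals of 2866 and 4005 on array 1, and of 2891 and 4460 on array 2. Here the control signals were nearly equal and both BIO signals lay well above them. The log2 ratio of Prrx2 was 0.42 and 0.62, a mean of 0.52 ± 0.11 (adjusted p = 0.0132, limma), or 1.43-fold. The call of Prrx1 ended with the processed signals (adjusted p = 0.0725) and with an offset of 16 (0.0529), and those of both PRRX genes ended with median centring and with the score table (up to 0.289 for Prrx1), with the mean log2 ratio of each above 0 in all 7 alternatives.

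The promoters of Prrx1 and Prrx2 are given for comparison with those of the TWIST genes, as the pair that moved the other way. They span chr1:163313651-163313900 (minus strand) and chr2:30845117-30845366 (plus strand) of GRCm38.p6, and are written on the gene's own strand with the same 2 elements searched.
Prrx1: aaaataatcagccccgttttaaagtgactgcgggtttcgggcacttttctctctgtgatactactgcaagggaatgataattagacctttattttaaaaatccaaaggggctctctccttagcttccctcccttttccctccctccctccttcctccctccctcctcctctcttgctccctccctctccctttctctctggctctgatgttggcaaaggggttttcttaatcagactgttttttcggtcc
Prrx2: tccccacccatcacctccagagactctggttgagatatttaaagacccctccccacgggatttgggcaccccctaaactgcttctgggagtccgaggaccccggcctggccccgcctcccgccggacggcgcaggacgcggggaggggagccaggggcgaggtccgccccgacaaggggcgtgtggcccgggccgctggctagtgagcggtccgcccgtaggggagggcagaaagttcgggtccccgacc
Neither window held an E-box or a TCF/LEF element of the letters searched, as was the case for the TWIST genes. The windows differed in base composition, as G and C made up 47.6% of the Prrx1 and 70.0% of the Prrx2 window, 62.4% of that of Twist1 and 68.8% of that of Twist2. The median over all promoters was 52.4%.

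Relatives were then compared with each other within each array, by the difference of their log2 ratios. In replicate 1 the paralogs of each of the 4 pairs differed by at most 0.05, on array 2 by up to 0.62. Twist1 minus Twist2 was 0.02 and -0.62, Prrx1 minus Prrx2 was 0.00 and -0.26, Zeb1 minus Zeb2 was 0.05 and -0.06, and Snai1 minus Snai2 was 0.05 and -0.16. In an exact sign-flip permutation test p was 1 for each of the 4 pairs, two-sided and also after Benjamini-Hochberg adjustment, but this test cannot give a p below 0.5 with 2 arrays and so tells nothing either way. No other test of these differences was made.

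At the level of probes, 8 of the 14 passed, 5 lower and 3 higher with BIO, compared with 23.2% of all probes tested. An intensity and fold rule was also applied, modelled on the cut-offs that the study states for other arrays and read here as a change of at least 2-fold on both arrays with a brighter channel of at least 100. By this rule only Twist1 passed, in the lower direction. The rule was met in that direction by 2.04% of all genes tested. It was applied to processed signals and has no test. Twist2 passed it on array 1 alone.

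The other genes of the EMT network were examined in lists. Their counts are to be read beside the 14.8% of all genes tested that fell and the 9.14% that rose. The bHLH partners and inhibitors of TWIST comprised 10 genes, all tested, of which 2 rose and 0 fell (median log2 ratio -0.11). Hand1, a partner of TWIST1 in limb and heart, rose by 0.75 ± 0.12 (adjusted p = 0.00336, limma), and Tcf12, an E-protein that forms dimers with TWIST1, rose by 0.36 ± 0.11 (adjusted p = 0.0452, limma). The ID genes, which encode dominant-negative inhibitors of E-proteins, did not pass the test, with log2 ratios from -0.31 for Id2 to 0.16 for Id4. Of 11 genes of SNAIL and ZEB corepressors and of SNAIL turnover, 1 rose and 0 fell (median 0.00). A rise of 1 in 11 lies close to the share over all genes. The gene that rose was Rcor1, which encodes a corepressor in a complex with LSD1 (Kdm1a), with 0.41 ± 0.12 (adjusted p = 0.0441, limma). Gsk3b, which encodes one form of the kinase that BIO inhibits and was singled out after its values were seen, had a log2 ratio of 0.35 ± 0.11 (adjusted p = 0.0512, limma). The calls of Tcf12 and Rcor1 were close to the threshold and were lost in several of the alternatives listed in the closing section.

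Epithelial genes, among which are known targets of repression by SNAIL and ZEB factors, fell or did not pass the test. Of 12 such genes, 6 fell and 0 rose (median -0.37). Cdh1, which encodes E-cadherin, had signals of 7817 and 4088 for control and BIO on array 1, and of 9764 and 4486 on array 2, and fell by 1.04 ± 0.11 on the log2 scale (adjusted p = 0.000486, limma). The keratin genes Krt8 and Krt18, whose products pair in simple epithelia, fell by 0.91 ± 0.13 and 0.89 ± 0.13. In the same list the log2 ratio was 0.02 for Epcam and between -0.12 and -0.06 for the claudin genes Cldn3, Cldn4 and Cldn7, none of which passed. Of 10 epithelial regulators that oppose EMT, 4 fell and 1 rose (median -0.21). Ehf, an ETS factor of epithelia, fell by 1.48 ± 0.11, Esrp2, a splicing regulator of epithelial isoforms, by 1.15 ± 0.11 and Ovol1, a repressor of Zeb1, by 0.54 ± 0.11. Grhl3, a grainyhead factor of surface epithelia, rose by 1.05 ± 0.11 (adjusted p = 0.000394, limma).

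**Figure D3:**
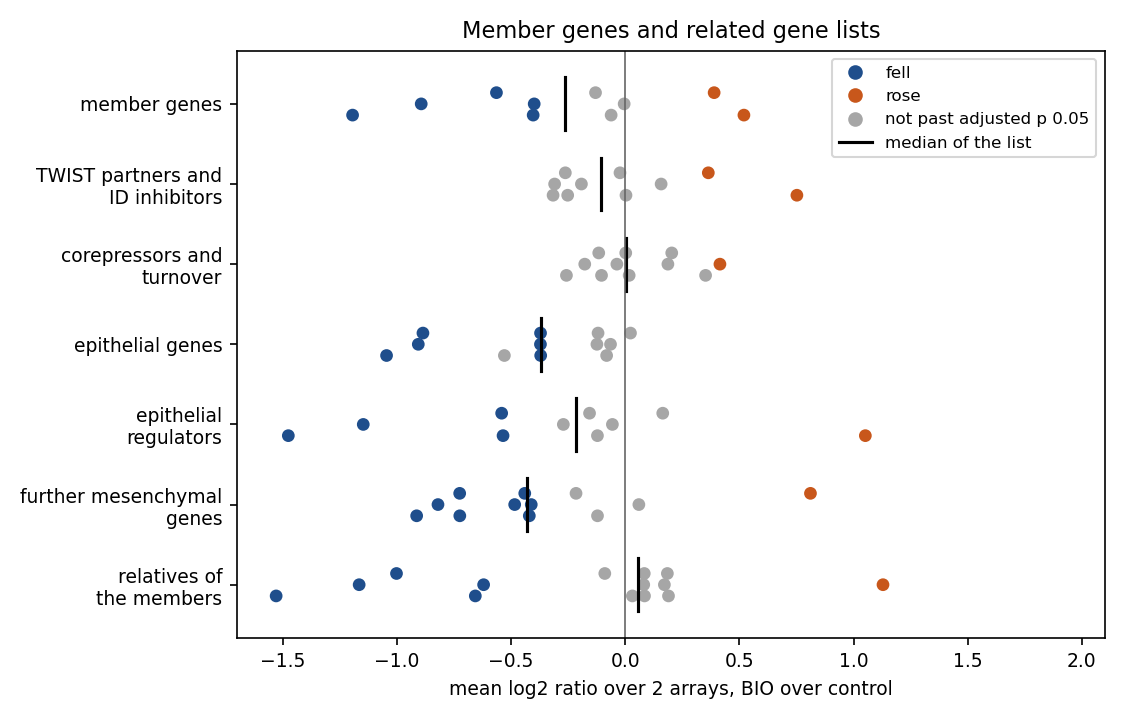
Mean log2 ratio of BIO over control over the 2 arrays (x axis) for the tested genes of each list (y axis), 1 point per gene at its brightest probe; blue points fell, orange points rose, grey points did not pass an adjusted p of 0.05, and the black bar is the median of the list. Of the lists plotted, the further mesenchymal genes have the lowest median, -0.43, and the relatives of the 10 genes spread widest, from -1.53 to 1.13.

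Further mesenchymal genes moved mostly in the direction of Vim. Of 12 such genes, 8 fell and 1 rose (median -0.43). Those with the largest falls were Col3a1, a fibrillar collagen gene, by 0.91 ± 0.13, S100a4, which encodes a calcium-binding protein of fibroblasts, by 0.82 ± 0.12, and Col1a2, a subunit gene of type I collagen, by 0.72 ± 0.11. Thy1, a surface protein of fibroblasts and other cells, rose by 0.81 ± 0.11 (adjusted p = 0.00134, limma). Fn1, the fibronectin gene, did not pass, with a log2 ratio of -0.12. As for Vim, the count of this list was smaller with median centring, at 2 called genes in place of 9.

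Of 16 relatives of the 10 genes by family, 14 were tested, 5 fell and 1 rose (median 0.06). Tcf15 and Scx, bHLH genes of the TWIST subfamily that act in somites and tendons, fell by 1.53 ± 0.11 and 1.00 ± 0.11. Des, which encodes the muscle intermediate filament desmin, a relative of vimentin, fell by 1.16 ± 0.11. Alx1, a paired-type homeodomain gene of craniofacial mesenchyme, rose by 1.13 ± 0.12 (adjusted p = 0.000515, limma). Snai3 and Ferd3l, further members of the SNAIL and TWIST families, were not well above background in any channel.

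Markers of the cell types of the explant moved as well. In RNA of whole explants fewer cells of a type and less RNA per cell cannot be told apart. Of the 12 UM markers, 7 fell and 0 rose (median -0.45), and their summed processed signal was 205475 and 215390 in the control and 137435 and 151869 in the BIO channels. Of the 12 UE markers, 8 fell and 0 rose (median -0.90), with sums of 96416 and 97450 in the control and 50638 and 62204 with BIO. This list shares Cdh1, Epcam, Krt8 and Krt18 with the epithelial genes above. All 10 endothelial markers fell (median -1.83), with sums of 35710 and 43069 in the control and 7450 and 13224 with BIO. Zeb1, Zeb2 and Vim are also expressed in endothelium, and the part of these cells in the 5 falls was not tested. In smaller lists, 4 of 9 macrophage, 3 of 7 neural crest and Schwann cell precursor, 4 of 5 smooth muscle and 2 of 6 erythroid markers tested fell. In each of them 0 rose. Over all genes tested, 14.8% fell and 9.14% rose. The arrays differed, with median log2 ratios on arrays 1 and 2 of -0.63 and -0.20 for macrophage markers. For erythroid markers they were -0.19 and -0.63. The summed signal of macrophage markers was 8540 and 9639 in the control and 6175 and 8860 with BIO, and that of smooth muscle markers 12205 and 12733 against 5267 and 5789. For neural crest and Schwann cell precursors the sums were 31744 and 34611 against 23411 and 32333, and for erythroid cells 188109 and 214045 against 140323 and 116541. The part of these cells in the values of the 10 genes was not tested. At this threshold Prrx1 and Prrx2 rose, while 0 of the 12 UM markers did. The UM marker Tbx3 came close, with a log2 ratio of 0.34 (adjusted p = 0.0599, limma). The cause of the PRRX values was not tested.

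**Figure D4:**
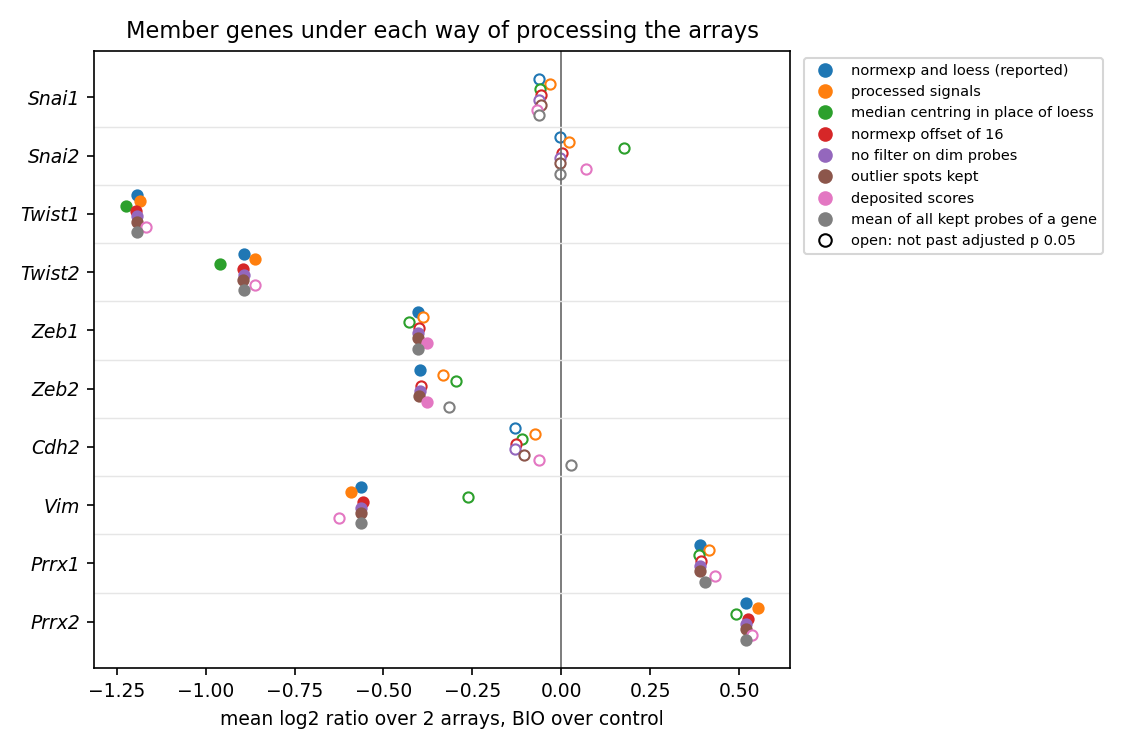
Mean log2 ratio of BIO over control over the 2 arrays (x axis) of the 10 genes (y axis) under the reported processing and 7 alternatives, 1 color each; filled points passed an adjusted p of 0.05 and open points did not. Twist1 and Twist2 stay lowest in all 8 settings, Prrx1 and Prrx2 stay above 0, and Vim moves most, from -0.63 to -0.26.

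Across 7 alternatives of processing, the 7 genes that passed kept the sign of their mean log2 ratio, while the number of them that passed ranged from 2 to 7. Twist1 ran from -1.22 to -1.17, Twist2 from -0.96 to -0.86, Zeb1 from -0.43 to -0.38, Zeb2 from -0.40 to -0.30, Prrx1 from 0.39 to 0.43 and Prrx2 from 0.49 to 0.55. Vim had the widest range of the 7, from -0.63 to -0.26, and with median centring its ratio on array 1 was above 0. Snai1, Snai2 and Cdh2 did not pass in any of the 7, where Snai2 lay between -0.00 and 0.18 and Cdh2 between -0.13 and 0.03.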

How the data were processed

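Total RNA of control and BIO-treated ureters was amplified, labeled with AlexaFluor555 (green) or AlexaFluor647 (red) and hybridized to 2-color Agilent arrays, which the authors quantified with Agilent Feature Extraction 10.7.3.1 (name and version from the submitters' processing notes). The deposited scanner tables hold mean and local background intensities, which the authors left uncorrected, and processed signal intensities, background-subtracted and dye-normalized within the array. The authors also deposited a table of 1 score per probe and array, whose making is not given in the sources used here. Set against the processed ratios it follows a signed fold of BIO over control (Pearson correlation across probes 0.675 and 0.760). Its centring is unknown, the median of each column was 1, and it served as an alternative only. Its values are coarse, as Zeb1 and Zeb2 both had a log2 score of -0.38 on both arrays. Such ties leave no spread between the arrays. No column of sample values was left unused (0 columns).

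Intensities were corrected with normexp (offset 50) and normalized by loess within each array in limma 3.58.1 (R 4.3.3), with control and outlier spots at weight 0 and then left out (3.49% and 3.16% of biological spots were outliers), and the 4 spots of a probe were averaged. The offset pulls ratios of dim probes toward 0. Probes were tested when more than a share of 0.5 of their spots was well above background in the control channels or the BIO channels of both arrays. The ratio of replicate 2 was turned, so that both read BIO over control, and lmFit and eBayes gave a two-sided test of their mean against 0 ( Benjamini-Hochberg over 28824 probes, threshold 0.05). Each SE and each 95% interval comes from the moderated fit, with 7.14 prior degrees of freedom. They thus draw mostly on the spread over all probes tested, and less on that between a probe's own 2 arrays. A term for dye was left out, since none of the degrees of freedom would have remained. Both arrays lay on 1 slide and in 1 scan, so neither slide nor scan differed between them. The dye orientation changed together with the replicate, and these cannot be told apart. The arrays correlated with a Pearson r of 0.801 over the probes tested. The labels number the samples and the study's methods describe pooled ureters, and 1 array counts as 1 replicate. For the fold rule, processed signals were raised to a floor of 15 and centred on each array's median. Only the step of the fit was tested on simulated log2 ratios, drawn with the prior spread estimated from these data. Background correction, normalization and the averaging of spots were not part of that test.

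The 10 genes and the lists were chosen with earlier results of these data known. All members are named at each probe, and from each list of related genes up to 3 called genes with the largest rise and up to 3 with the largest fall. Others are named to describe the genes of a list that did not pass, chosen after their values were seen. Probe coordinates are in mm9 (NCBI37) as in the files, which do not give exon or UTR positions. Promoters come from a RefSeq table of GRCm38.p6, of which the 250 bases before each start were used, and 7 of the 10 genes are covered. Snai2 had no usable entry under its symbol. Member windows on chromosome 18, where Zeb1 and Cdh2 lie, were left out of the search. The shares over all promoters were taken without that step. Alternatives were processed signals, median centring, an offset of 16, no filter on dim probes, outlier spots kept, the score table, the mean of a gene's probes, a 3-fold rule and single arrays.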

Additional observations from a re-analysis of the deposited data

How the results depend on the processing

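Of the 10 genes, 7 passed in the reported processing (5 fell, 2 rose). With processed signals and with an offset of 16, 4 passed (3 fell, 1 rose). With the score table and with median centring 2 passed (2 fell, 0 rose), but not the same genes. Zeb1 and Zeb2 passed with the score table, Twist1 and Twist2 with median centring. In the score table Zeb1 and Zeb2 each had -0.38 on both arrays, so that the test saw no spread between them. Twist1 had -1.07 and -1.26 there, and Twist2 had -1.14 and -0.58. No call changed direction. Of the 14 probes, 8 passed, against 4 with processed signals, 3 with the scores, 2 with median centring and 5 with an offset of 16. Twist1 alone passed the fold rule. With a 3-fold minimum 0 genes did, and on single arrays 1 to 2 did (without replicate 2, Twist2 as well). On single arrays the median log2 ratio ran from -0.35 to -0.23. The cause of these differences was not tested.

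Among the related lists, the count of called TWIST partners was 1 in place of 2 with processed signals, the score table, averaged probes and an offset of 16. That of corepressors and turnover genes was 0 in place of 1 with processed signals, the score table, averaged probes, median centring, no filter and an offset of 16, and 2 with outlier spots kept. Called epithelial genes numbered 3 in place of 6 with processed signals and an offset of 16, and 2 with the score table. For epithelial regulators 5 became 3 with processed signals and 1 with the score table. For further mesenchymal genes 9 became 5, 3 with the score table and 2 with median centring. The count of relatives stayed within 1.5 times its value. With the deposited scores, 14 of the other named genes, Hand1, Rcor1 and Tcf12 among them, no longer passed and 7 did, each in its reported direction.

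Over all genes 5160 passed (1974 rose, 3186 fell), against 3627 with processed signals, 2769 with median centring and 3251 with the score table. With the score table most called genes rose (1931 rose, 1320 fell). Genes that also passed in the reported processing numbered 3335 with processed signals and 2665 with median centring. With the score table they numbered only 1040 of the 3251. Across the 7 alternatives the median log2 ratio of all genes lay between -0.04 and 0.03. The test reported is already a paired one, on the ratio of BIO to control within each array, so no further fit with the replicate as a block was made. With 2 arrays, changes near 0.35 on the log2 scale lie at the limit of what passed.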
